A study of Mus musculus with 7 samples.

Results

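The Notch receptor genes Notch1, Notch2, Notch3 and Notch4 and the ligand genes Jag1, Jag2 and Dll4 were examined for open chromatin in Dll1+ and Dll1− mammary tumour cells. These 7 genes encode the receptors and all canonical ligands except Dll1, the gene that defined the cell populations, and Dll3. A region was assigned to one of them when the transcription start site (TSS) closest to its midpoint, among the protein-coding TSSs of the GENCODE annotation of GRCm38, was the TSS of that gene. Regions were the rows of the 2 deposited peak lists, joined where they overlapped or touched. Of 119215 such regions in all, 107 were assigned to the 7 genes, 56 to the receptors and 51 to the ligands.

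The assay was ATAC-seq, in which a transposase cuts open chromatin so that reads pile up at accessible sites. The cells came from spontaneous mammary tumours of mice with the MMTV-PyMT transgene, which expresses the polyoma middle T oncoprotein from a viral promoter active in mammary epithelium, and with an mCherry reporter of Dll1 carried on a bacterial artificial chromosome (labelled Py+Tg3+). Lineage-negative cells, from which blood, immune and vessel cells had been depleted, were sorted into mCherry+ (Dll1+, 3 samples) and mCherry− (Dll1−, 4 samples) cells. They came from 4 tumours, of which 3 gave both cell types and 1 gave Dll1− cells only, and no treatment was applied. The mice of both groups carry the transgene and the reporter, so every sample is a tumour sample and none is normal mammary tissue.

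Each list pools all samples of its cell type. There is therefore 1 value per cell type for each region, no spread between tumours can be given, and no difference was tested. The lists differ in depth. The genome-wide background, recovered from the deposited values under an assumed Poisson model of the peak caller, was lower for Dll1+ cells (3.74 reads) than for Dll1− cells (7.20 reads), and the median row held 43 and 61 reads. In cell populations, fewer cells with an open site and a less open site in each cell cannot be told apart.

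Notch receptors are membrane proteins that are cut when a ligand on a neighbouring cell binds and pulls on them. The freed intracellular part enters the nucleus and joins the DNA-binding protein RBPJ, which turns target genes on. In the mammary gland Notch signalling is known for its part in luminal cell fate, and in mammary tumours Notch receptors and the ligand Jag1 have been linked to tumour growth.

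The start regions that were listed for one cell type only are shown first, because a promoter listed for 1 cell type is the plainest difference in presence. Below are the 200 bases upstream of the Notch1, Notch4 and Jag2 TSSs, read on the strand of the gene from GRCm38. Notch1 lies on the minus strand (chr2:26503823-26504022), Notch4 on the plus strand (chr17:34564068-34564267) and Jag2 on the minus strand (chr12:112929777-112929976). Capitals mark a match to the NF-kB motif, which was found at Jag2. None of the other 6 motifs searched, which are given with their letters further on, was found in these stretches, although the 200 bases around the summit of the Notch4 start region, which reach into the gene, hold an AP-1 motif.

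Notch1 upstream: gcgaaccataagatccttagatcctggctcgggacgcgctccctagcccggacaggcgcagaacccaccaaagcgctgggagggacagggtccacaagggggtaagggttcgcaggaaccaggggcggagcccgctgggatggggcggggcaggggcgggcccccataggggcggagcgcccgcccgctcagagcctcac
Notch4 upstream: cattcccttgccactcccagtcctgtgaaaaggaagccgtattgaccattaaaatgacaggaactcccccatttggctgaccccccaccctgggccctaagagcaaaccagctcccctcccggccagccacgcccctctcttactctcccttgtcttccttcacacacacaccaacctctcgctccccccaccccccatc
Jag2 upstream: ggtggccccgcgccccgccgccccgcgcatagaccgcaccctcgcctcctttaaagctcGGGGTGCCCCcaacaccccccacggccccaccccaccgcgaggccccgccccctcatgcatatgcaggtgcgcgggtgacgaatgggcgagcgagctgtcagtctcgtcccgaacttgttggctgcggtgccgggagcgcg

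Away from the start sites, the Jag2 region with the most unequal rank and the strongest Jag1 region listed for Dll1− cells only are shown as the 200 bases around the summit. Both are read on the minus strand, the strand of the genes. The Jag2 stretch is chr12:112897910-112898109 and the Jag1 stretch is chr2:137204507-137204706. Capitals mark the 7 bases of an AP-1 motif, the sequence bound by Fos and Jun proteins.

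Jag2 downstream region: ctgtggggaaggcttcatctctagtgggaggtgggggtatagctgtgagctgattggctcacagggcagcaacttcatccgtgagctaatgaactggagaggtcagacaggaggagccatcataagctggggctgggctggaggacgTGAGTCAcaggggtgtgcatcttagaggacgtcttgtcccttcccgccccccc
Jag1 upstream region: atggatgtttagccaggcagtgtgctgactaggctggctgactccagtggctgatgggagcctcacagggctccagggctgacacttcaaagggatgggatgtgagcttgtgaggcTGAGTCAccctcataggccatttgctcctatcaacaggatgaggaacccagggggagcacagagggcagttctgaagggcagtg

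The 10 regions with an RBPJ motif are shown because RBPJ is the DNA-binding partner of Notch itself. Each line gives the match in capitals with 16 bases on either side, on the minus strand of GRCm38, which is the strand of Notch1, Notch3 and Jag1. TTCCCACG and TTCCCACA are the motif read on the opposite strand.

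Notch1, chr2:26502379-26502418, Dll1+ list only: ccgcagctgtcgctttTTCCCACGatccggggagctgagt
Notch1, chr2:26508390-26508429, both lists: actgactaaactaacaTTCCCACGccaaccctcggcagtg
Notch1, chr2:26516510-26516549, Dll1− list only: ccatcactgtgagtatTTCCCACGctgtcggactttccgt
Notch3, chr17:32162295-32162334, both lists: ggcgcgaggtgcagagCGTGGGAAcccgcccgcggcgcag
Jag1, chr2:137049533-137049572, Dll1− list only: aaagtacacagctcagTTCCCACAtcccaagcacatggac
Jag1, chr2:137067637-137067676, Dll1− list only: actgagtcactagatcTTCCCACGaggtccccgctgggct
Jag1, chr2:137080754-137080793, both lists: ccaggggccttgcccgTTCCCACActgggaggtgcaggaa
Jag1, chr2:137098359-137098398, both lists: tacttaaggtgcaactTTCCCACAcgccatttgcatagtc
Jag1, chr2:137190938-137190977, both lists: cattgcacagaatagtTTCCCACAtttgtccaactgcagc
Jag1, chr2:137606932-137606971, both lists: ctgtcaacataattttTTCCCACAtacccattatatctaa

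Of the 107 regions, 69 were present in both lists, 10 in the Dll1+ list only and 28 in the Dll1− list only. The shares were 9.35% for Dll1+ only, beside 9.01% of all regions, and 26.2% for Dll1− only, beside 24.6% of all regions, so neither share was far from that of the genome. The receptors had 38 regions in both lists, 7 for Dll1+ only (12.5%) and 11 for Dll1− only (19.6%). The ligands had 31, 3 (5.88%) and 17 (33.3%), and 16 of these 17 lay at Jag1.

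**Figure D1:**
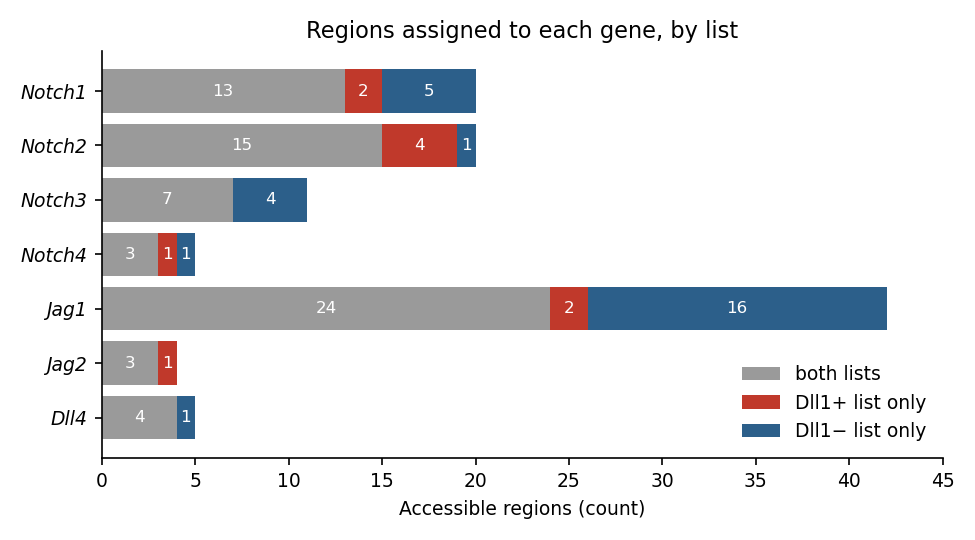
Number of accessible regions (horizontal axis) assigned to each of the 7 genes, coloured by the list that holds them. Jag1 has 42 regions with 16 for Dll1− only, while Notch2 is the gene with the most Dll1+ only regions, 4 of its 20.

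Strength was compared by rank. The deposited fold of a row is the height at its summit over the local background. It was turned into its percentile among all rows of the same list, so that 100 marks the strongest row. Where a list held several rows in a region, its strongest row by fold stood for the region. The summits compared between the lists may therefore lie apart. A shared region was called higher in one cell type when its percentiles differed by at least 10 points. Of the 69 shared regions, 17 ranked higher in Dll1+ cells (24.6%, beside 15.2% of all shared regions) and 18 ranked higher in Dll1− cells (26.1%, beside 25.1%). Ranked by recovered reads in place of fold, 11 were higher in Dll1+ and 20 in Dll1− cells, beside 12.3% and 28.8% of all shared regions, so the split depended on the quantity that was ranked. With percentiles of fold taken among shared regions only, the counts were 23 and 19, beside 22.1% and 21.8% of all shared regions. The median difference, Dll1+ minus Dll1−, was −1.12 points for the members and −1.67 points for all shared regions. Between quartiles the members ran from −10.3 to 9.995 points and all shared regions from −10.03 to 4.47 points. By fold, the upper quartile of the members thus lay further towards Dll1+, and 9 of their 17 calls in that direction were at Jag1. Ranked by reads, the median was −3.11 points for the members and −2.61 points for all shared regions.

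The genes did not all lean the same way. Of the 24 shared regions of Jag1, 9 ranked higher in Dll1+ cells (37.5%, beside 15.2% of all shared regions) and 5 in Dll1− cells (20.8%, beside 25.1%). Within 50 kb of the Jag1 TSS these numbers were 3 and 0 of 6, with a median difference of 11.98 points, and over 50 kb upstream they were 6 and 5 of 17, with a median of 1.94 points. Ranked by reads, the calls were 2 and 0 near the TSS, with a median of 4.15 points, and 5 and 5 further upstream, with a median of −1.03 points. The region 36072 bp downstream of the TSS turned, from 13.96 points by fold to −6.88 points by reads. Notch2 had 2 and 6, Notch1 had 4 and 3, Notch3 had 1 and 2 and Jag2 had 1 and 2. No shared region of Notch4 or Dll4 differed by 10 points in fold rank. Ranked by reads, 2 of the 3 shared regions of Notch4 were over 10 points higher in Dll1− cells, while Dll4 still had none. The median difference was 5.94 points for Jag1, 1.60 for Dll4, −1.77 for Notch1, −3.35 for Notch3, −5.47 for Notch4, −6.23 for Notch2 and −24.1 for Jag2, which had only 3 shared regions. The lean of Notch1 depended on the quantity ranked. Its median was 1.66 points by reads and 1.93 points by −log10 p. By reads the medians were 1.66 for Jag1, 0.531 for Dll4, −4.30 for Notch2, −11.5 for Notch3, −11.9 for Notch4 and −32.8 for Jag2. When percentiles were taken among regions in place of rows, the median of Dll4 was −0.766 points.

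**Figure D2:**
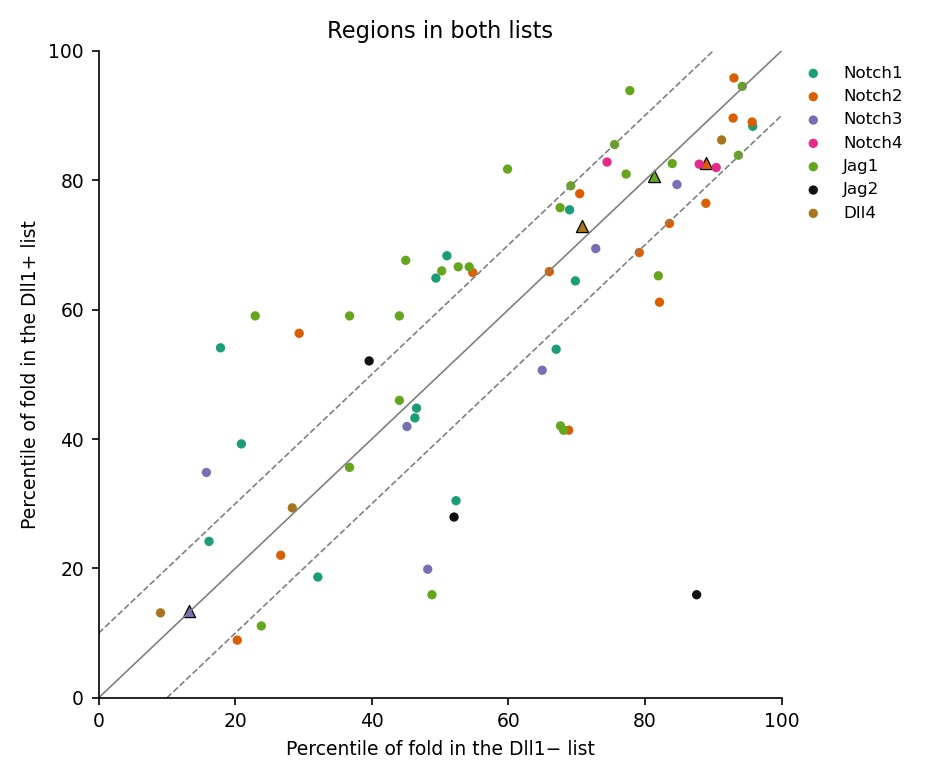
Percentile of fold of the 69 shared regions in the Dll1− list (horizontal axis) and the Dll1+ list (vertical axis), coloured by gene, with triangles for regions over a TSS and dashed lines 10 points from equality. The 4 triangles lie inside the dashed lines, and the farthest point from equality is a Jag2 region at 15.9 in Dll1+ and 87.6 in Dll1− cells.

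The start sites were compared next, since a region over the TSS marks a promoter that is open. All 7 genes had a region over the TSS in at least 1 list. It was present in both lists for Notch2, Notch3, Jag1 and Dll4, in the Dll1− list only for Notch1 and Notch4, and in the Dll1+ list only for Jag2. Over all 13063 regions that cover a protein-coding TSS, 5.03% were Dll1− only and 0.949% were Dll1+ only.

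Notch1 encodes the receptor best known from T-cell leukaemia and is also expressed in luminal progenitors of the mammary gland. Its TSS region (chr2:26503563-26503991) was a row of the Dll1− list with a fold of 3.04, at percentile 18.7, from 174 reads (95% interval 149 to 202, which here and below covers counting error only). The fold was low for this number of reads, since it is taken over a local background that was 56.6 reads here, 7.86 times the genome-wide level. The Dll1+ list had no row there. At the depth of the Dll1+ list these reads would correspond to a −log10 p of 19.3, which is percentile 48.9 of the −log10 p values of that list. Just inside the gene, 1901 bp downstream of the TSS in a coding exon (chr2:26501591-26502251), a region was shared at percentile 64.4 in Dll1+ and 69.8 in Dll1− cells. It held 267 and 394 reads, so the first kilobases of Notch1 were open in both cell types.

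The strongest region of Notch1 lay 22081 bp upstream of the TSS, between genes (chr2:26525605-26526202). It ranked at percentile 88.3 in Dll1+ cells, with 81 reads, and at 95.8 in Dll1− cells, with 210 reads. The largest differences ran in opposite directions. An intronic region 16353 bp downstream (chr2:26487190-26487749) was at percentile 54.1 in Dll1+ cells and 17.8 in Dll1− cells, 36.2 points higher in Dll1+, from 50 and 34 reads. Scaled to the background depth of each list, the reads were 2.83 times higher in Dll1+ cells (1.80 to 4.52). The median of this ratio over all shared regions was 1.18, and scaled ratios here and below are to be read beside it. An intergenic region 28252 bp upstream (chr2:26531919-26532230) was 21.9 points higher in Dll1− cells, at 30.5 and 52.3. Its scaled read ratio was 1.12, with an interval of 0.78 to 1.59, beside a median of 1.18 over all shared regions, and ranked by reads the difference was −7.57 points (59.2 and 66.8). The regions of Notch1 listed for 1 cell type lay between percentiles 7.95 and 13.6 for the 2 Dll1+ only regions and between 2.93 and 39.5 for the 5 Dll1− only regions, a range that overlaps that of the shared regions (16.2 to 95.8 in the Dll1− list). Some ranked higher by reads. The Dll1+ only region 1362 bp downstream held 96 reads, percentile 79.7 by reads, and the TSS region was at 85.1.

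Notch2 encodes a receptor that is broadly expressed in epithelia. Its TSS region (chr3:98013070-98014332) was strong in both cell types, at percentile 82.7 in Dll1+ and 89.0 in Dll1− cells, with 141 reads (119 to 166) and 258 reads (227 to 291). The scaled read ratio was 1.05 (0.85 to 1.30), beside a median of 1.18 over all shared regions. The strongest region of all members in the Dll1+ list lay in an intron 22693 bp downstream of the TSS (chr3:98035973-98036490), at percentiles 95.8 and 93.0. Of the 20 regions of Notch2, 15 lay inside the gene. The gene body held 20 regions in all, and those nearer to the TSS of another gene are not counted for Notch2. The same held at Notch1, with 13 of 15 counted, and at Notch4, with 2 of 3.

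A pair of Notch2 regions differed most. An intronic region 12613 bp downstream (chr3:98025968-98026335) was 27.0 points higher in Dll1+ cells, at 56.3 and 29.4, with 89 and 62 reads and a scaled ratio of 2.76 (1.98 to 3.89). An intergenic region 36680 bp upstream (chr3:97976500-97977217) was 27.5 points higher in Dll1− cells, at 41.4 and 68.8, with 22 and 58 reads. Its scaled ratio of 0.73 had an interval of 0.43 to 1.21, which includes 1 and the median of 1.18 over all shared regions. Notch2 also carried 4 of the 10 Dll1+ only regions, all in introns between 15503 and 49959 bp downstream of the TSS. The strongest of them (chr3:98050509-98051029) was at percentile 48.0 with 35 reads, and it was the highest of all Dll1+ only regions of the 7 genes.

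Notch3 encodes a receptor known from pericytes and smooth muscle and also found in luminal cells. Its TSS region (chr17:32166758-32167069) ranked low by fold and nearly equal in the lists, at percentile 13.5 in Dll1+ and 13.3 in Dll1− cells. It held 57 and 94 reads, with a scaled ratio of 1.17 (0.83 to 1.64), beside a median of 1.18 over all shared regions. The local background here was 4.92 and 4.73 times the genome-wide level, and by reads the region was at percentiles 62.2 and 68.0. A coding exon 23556 bp downstream (chr17:32143054-32143539) held the strongest region, at 79.3 and 84.7. The largest difference was at an intergenic region 3264 bp upstream (chr17:32169849-32170384), which was 28.3 points higher in Dll1− cells, at 19.9 and 48.2, with 30 and 95 reads and a scaled ratio of 0.61 (0.39 to 0.93). In the other direction, an intron of a transcript beyond the 3′ end of Notch3 (chr17:32114585-32114831) was 19.1 points higher in Dll1+ cells, at 34.8 and 15.8, from 27 and 36 reads. Its scaled ratio was 1.44 (0.84 to 2.45), and ranked by reads the difference was 3.15 points. Notch3 had no Dll1+ only region and 4 Dll1− only regions, at percentiles 4.86 to 39.8.

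Notch4 encodes a receptor best known from endothelial cells, and its locus is also a site of mouse mammary tumour virus insertion. Its TSS region (chr17:34563965-34564430) was Dll1− only and of middle strength, at percentile 55.05 with a fold of 5.46 from 68 reads (52.8 to 86.2). The same reads at the depth of the Dll1+ list would correspond to a −log10 p of 16.2, which is percentile 43.5 of the −log10 p values of that list. The 3 shared regions of Notch4 were all strong. They lay 8623 bp and 2243 bp upstream and 12461 bp downstream of the TSS, at percentiles 82.5, 82.8 and 82.0 in Dll1+ cells and 87.9, 74.4 and 90.4 in Dll1− cells. The last of these (chr17:34576403-34577056, in an intron), the strongest of the 3 in the Dll1− list and the weakest of them in the Dll1+ list, had a scaled read ratio of 0.88 (0.65 to 1.19). The 1 Dll1+ only region, in a coding exon (chr17:34567247-34567537), was at percentile 26.1 from 17 reads.

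Since Notch4 and Dll4 are known from vessels and Notch3 from pericytes, markers of these cells were read beside them. Of 10 endothelial genes, 2 had a promoter region in each list (Kdr and Egfl7, at percentiles 32.5 to 65.5 in Dll1+ and 33.9 to 74.7 in Dll1− cells), and Pecam1, Cdh5, Tek and Tie1 had none in either list. Of 10 pericyte and fibroblast genes, 1 had a promoter region listed for Dll1+ and 4 for Dll1− cells. Pdgfra was in both, at 67.4 and 78.6, and Pdgfrb, Rgs5 and Col1a2 were in the Dll1− list only, at percentiles 48.5, 30.5 and 51.6. Of 10 immune genes, Cd68 was in both lists and Csf1r in the Dll1− list only, at 76.04, while Ptprc was in neither. The part of these cells in the Dll1− only regions of the Notch genes was not tested. Luminal markers bear on the label of mammary tumour cells and not on the sort by Dll1. Of 12 luminal genes, 11 had a promoter region in each list, Krt8 being the exception. Of 8 basal genes, 5 had one in each list, and Krt5, Krt14 and Trp63 had none.

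**Figure D3:**
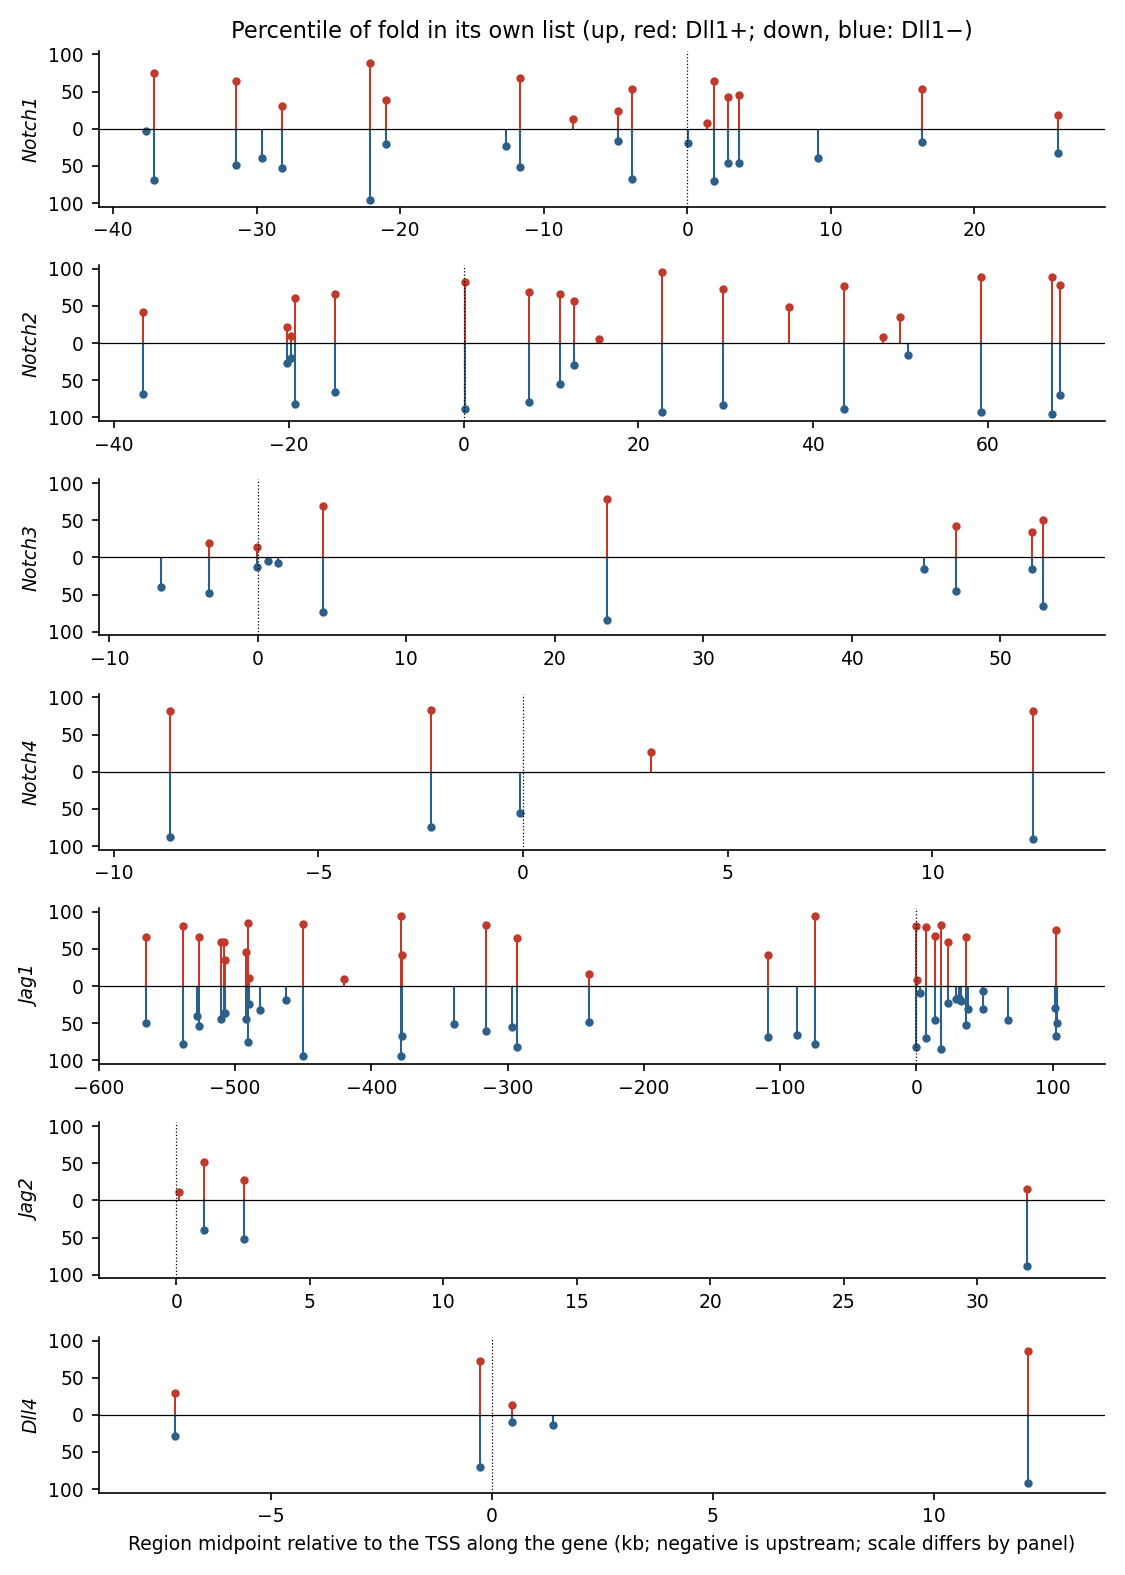
Every region of the 7 genes at the distance of its midpoint from the TSS (horizontal axis, kb, a scale per gene), with its percentile of fold drawn upwards in red for the Dll1+ list and downwards in blue for the Dll1− list. A line in 1 direction only is a region listed for 1 cell type, such as the blue line at the Notch4 TSS at 55.05, and the Jag1 panel shows regions spread over a gene desert upstream.

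Among the ligands, Jag1 had by far the most regions, 42 of the 107. It encodes the membrane ligand Jagged-1 and is itself a known Notch target. Its TSS region (chr2:137116546-137117708) was the one with the most reads of all members, 327 (293 to 364) in Dll1+ and 453 (412 to 497) in Dll1− cells, at percentiles 80.6 and 81.3. The scaled read ratio was 1.39 (1.20 to 1.61), beside a median of 1.18 over all shared regions, while the rank differed by 0.703 points. A second region at the start, in the 5′ untranslated exon, was Dll1+ only. It was at percentile 7.92 by fold but at 75.2 by reads, from 82 reads over a background of 30.5 reads.

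Jag1 lies beside a gene desert, and 675.5 kb of chromosome 2 are closer to its TSS than to any other protein-coding TSS. Its 42 regions came to 6.22 per 100 kb, beside 4.37 over the genome and 29.4 at Notch1, whose stretch is 67.9 kb long. Of the 42, 24 lay over 50 kb upstream and 4 over 50 kb downstream, and none of these 28 can be tied to Jag1 by distance alone. The distal upstream regions were mostly shared, 17 of 24, with 1 Dll1+ only and 6 Dll1− only (25%, beside 24.6% of all regions). Of the 14 regions within 50 kb of the TSS, 6 were shared (42.9%, beside 66.4% of all regions) and 7 were Dll1− only (50%). Of the 42 regions, 6 lay inside the neighbouring gene Slx4ip, all 4 of those over 50 kb downstream and 2 of the Dll1− only regions within 50 kb, which were in its coding exons. Of these 6, 5 were Dll1− only.

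The strongest Jag1 region in either list lay 378572 bp upstream (chr2:137495002-137495431), at percentiles 94.5 and 94.2 from 83 and 157 reads. A region 74466 bp upstream (chr2:137190816-137191405), one of those with an RBPJ motif, was at 93.8 in Dll1+ and 77.8 in Dll1− cells, 16.1 points higher in Dll1+. The largest difference towards Dll1+ was in an intron 23456 bp downstream of the TSS (chr2:137092898-137093479), at percentiles 59.0 and 22.9, from 30 reads in each list and a scaled ratio of 1.93 (1.12 to 3.31). A further intronic region 13415 bp downstream (chr2:137102903-137103555) had more reads behind it, 89 and 63, with a scaled ratio of 2.72 (1.95 to 3.82) and a difference of 22.7 points. The largest difference towards Dll1− was 240162 bp upstream (chr2:137356268-137357345), at 15.9 and 48.8, but from 14 and 39 reads the scaled ratio of 0.69 had an interval of 0.35 to 1.30.

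The Dll1− only regions of Jag1 included all of the stronger ones outside a start site. The one printed above, 87998 bp upstream (chr2:137204433-137204851), was at percentile 65.5 with a fold of 6.71 from 54 reads (40.6 to 70.5). Those 297050 bp upstream (chr2:137413551-137413837) and 339036 bp upstream (chr2:137455412-137455948) were at 55.5 and 51.6, from 44 and 41 reads. Together with the Notch4 TSS they were the 4 of 28 Dll1− only regions at or above the median fold of their list, which 22.3% of all Dll1− only regions reached. None of the 10 Dll1+ only regions reached the median of its own list, beside 15.4% of all Dll1+ only regions.

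Jag2, which encodes the second Jagged ligand, had 4 regions, and here the lists differed most. The region over its TSS (chr12:112929419-112929913) was Dll1+ only and weak, at percentile 11.1 with a fold of 2.85 from 20 reads (12.2 to 30.9). At the other end, an intergenic region 31869 bp downstream of the TSS, past the 3′ end of the gene (chr12:112897436-112898379), was at percentile 15.9 in Dll1+ and 87.6 in Dll1− cells. The difference of 71.6 points was the largest of all 69 shared regions. It rested on 14 reads (7.65 to 23.5) in Dll1+ and 118 reads (97.7 to 141) in Dll1− cells, and after scaling the Dll1+ reads were 0.23 of the Dll1− reads (0.12 to 0.40). In this region of 944 bp the Dll1+ list held 1 row and the Dll1− list 2, so the summits compared may lie apart. The next nearest TSS, that of Gpr132, was 36955 bp away, so the assignment to Jag2 rests on a small difference in distance. Of the 2 intronic regions, 1 was 24.1 points higher in Dll1− cells (27.9 and 52.04) and 1 was 12.5 points higher in Dll1+ cells (52.1 and 39.6). The scaled read ratio of the latter was 1.24 (0.82 to 1.86), and ranked by reads its direction turned, with a difference of −4.18 points.

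Dll4 encodes the ligand known from sprouting vessels. It had 5 regions, and its 4 shared regions differed by at most 5.01 points. Its TSS region (chr2:119325021-119326014) was at percentile 73.0 in Dll1+ and 70.8 in Dll1− cells, with 91 reads (73.3 to 112) and 114 reads (94.0 to 137). The scaled ratio was 1.54 (1.15 to 2.04), an interval that includes the median of 1.18 over all shared regions. The strongest region, 12143 bp downstream and past the 3′ end of the gene (chr2:119337315-119338539), was at 86.2 and 91.2. The remaining shared regions differed by 1.01 and 4.08 points, and the 1 Dll1− only region, in an intron, was at percentile 13.3.

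**Figure D4:**
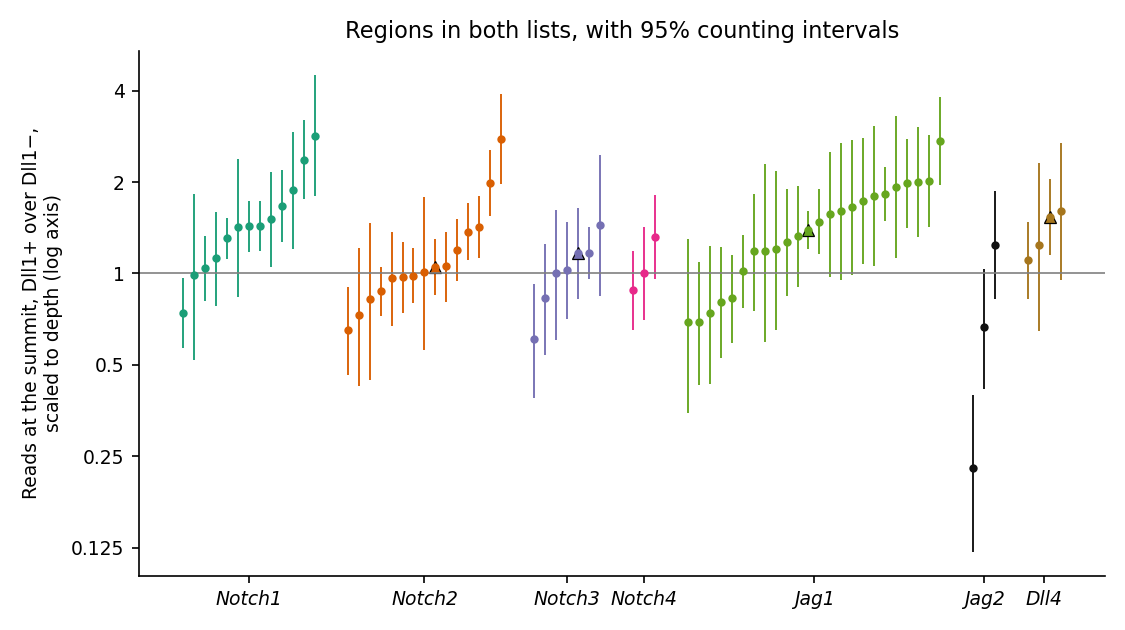
Reads at the summit of each shared region, Dll1+ over Dll1− after scaling to the background depth of each list (vertical log axis), sorted within gene, with bars for the 95% interval of the ratio from counting error only. Triangles are regions over a TSS, and the Jag2 region at 0.23 (0.12 to 0.40) stands below all others.

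Read ratios gave a view of the shared regions that does not use ranks. The median scaled ratio was 1.20 for the 69 shared regions and 1.18 for all shared regions of the genome. It was 1.44 at Jag1, 1.43 at Notch1 and 1.39 at Dll4, and it was 1.03 at Notch3, 1.01 at Notch2, 1.002 at Notch4 and 0.666 at Jag2. The local background was raised at some of the genes. Under the rows of Notch1 its median was 3.28 times the genome-wide level in the Dll1+ list and 2.26 times in the Dll1− list, beside 1.66 and 1.38 times over all rows, and its highest values were 9.75 and 7.86 times. At Jag1 the median was 1 in both lists, with 20 of 35 Dll1+ rows at the genome-wide level, and the highest values, 8.16 and 7.91 times, lay near the TSS. At Dll1, which the reporter also carries, the medians were 9.13 and 6.16 times and the highest values 23.7 and 19.7 times. The part of the background in the ranks was not tested.

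The 28 Dll1− only regions were also placed at the depth of the Dll1+ list, by dividing their reads and background by the depth ratio of 1.93. Their −log10 p would then run from 2.45 to 19.3, with a median of 6.41. None fell below the lowest value in the Dll1+ list, 2.001, but 10 fell below the value that cuts off the lowest 10% of that list, 5.68, and 9 lay above its lower quartile, 9.46. The part of depth in the absence of these regions from the Dll1+ list was not tested further.

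The sequence of the regions was read in the 200 bases around the summit. The RBPJ motif, TGTGGGAA or CGTGGGAA on either strand, was in 10 of the 107 windows (9.35%), beside 2.06% of all windows of the same length. Jag1 held 6 of them, Notch1 held 3 and Notch3 held 1. They were in 6 of 69 shared regions, 1 of 10 Dll1+ only and 3 of 28 Dll1− only regions. The Notch1 matches lay 1362 bp downstream and 4847 and 12646 bp upstream of the TSS, in regions of low fold rank (percentiles 7.95 to 24.2 where listed). By reads, the first was at percentile 79.7 and the last at 9.85. The one 4847 bp upstream was at 62.9 in Dll1+ and 58.6 in Dll1− cells. At Notch3 the match was in an intronic region 4413 bp downstream at percentiles 69.4 and 72.8. The Jag1 matches included 4 shared regions, at percentiles 66.6 to 93.8 in Dll1+ cells, and the other 2 lay inside Slx4ip.

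The AP-1 motif, TGACTCA or its reverse complement TGAGTCA, was in 24 windows (22.4%, beside 18.1% of all windows). It was in 10 of 28 Dll1− only regions (35.7%, beside 30.4% of all Dll1− only regions), 14 of 69 shared regions (20.3%, beside 15.4%) and 0 of 10 Dll1+ only regions, beside 4.38% of all Dll1+ only regions. The members thus showed the same order of the 3 classes as the genome. The summit window of the Notch4 start region and both non-promoter windows printed in full, at Jag2 and Jag1, hold the motif. Of the other motifs, TEAD (GGAATGT) was in 8 windows (7.48%, beside 5.06%), NF-kB in 4 (3.74%, beside 3.01%), RUNX (TGTGGTT) in 4 (3.74%, beside 5.05%), FOX (TGTTTAC) in 1 (0.935%, beside 3.71%) and GRHL (AACCGGTT) in none, beside 0.272%. All were searched on both strands. The RBPJ and RUNX letters open alike but cannot both match from the same first base on the same strand. In the Notch2 region 12613 bp downstream the TEAD and NF-kB matches overlap. The stretches upstream of the TSSs printed above are not summit windows and are not in these counts.

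By position, 49 of the 107 regions were intergenic (45.8%, beside 35.6% of all regions), 42 intronic (39.3%, beside 47.8%), 8 in coding exons (7.48%, beside 2.77%) and 5 at promoters (4.67%, beside 9.17%). The classes follow the transcripts of the basic annotation, whose Notch1 transcript begins at the TSS used here, so 5 regions further upstream that the longer Notch1 gene record covers counted as intergenic. A promoter here was the stretch between 1000 bp before and 100 bp after a TSS, so the TSS regions of Notch2 and Jag2, with midpoints further inside, counted as exonic. The member regions had a median GC content of 51.5% when shared, 56.8% when Dll1+ only and 53.0% when Dll1− only, beside 51.0%, 47.0% and 49.5% of all regions of these classes.

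Finally, the members were read beside the rest of the pathway. Dll1, whose reporter set the sort, had 20 regions, 16 in both lists and 2 in each list alone. Of the 16, 2 ranked higher in Dll1+ and 3 in Dll1− cells, with a median difference of 2.33 points. The fold at Dll1 is taken over a raised local background, at a median of 9.13 (Dll1+) and 6.16 (Dll1−) times the genome-wide level. The part of this background in the ranks was not tested. From the same assay, the paper reports several peaks at Dll1 that were enriched in Dll1+ cells. Dll3 had 1 shared region. A list of 38 other pathway genes had 362 regions, 238 in both lists, 32 Dll1+ only (8.84%, beside 9.01% of all regions) and 92 Dll1− only (25.4%, beside 24.6%). Of its 238 shared regions, 19 ranked higher in Dll1+ (7.98%) and 75 in Dll1− cells (31.5%), beside 15.2% and 25.1% of all shared regions and 24.6% and 26.1% for the receptors and ligands. Its median difference was −3.59 points, beside −1.67 points for all shared regions. These calls and those by role below rank by fold, and the pathway list is not ranked by reads here. By reads the receptors and ligands had 11 and 20 calls. By fold, 9 of their 17 calls towards Dll1+ were at Jag1.

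By role, the nuclear complex around Rbpj and the Maml co-activators had 125 shared regions, 8 higher in Dll1+ (6.40%, beside 15.2% of all shared regions) and 42 higher in Dll1− cells (33.6%, beside 25.1%). The cleavage enzymes, such as Adam10 and the presenilins, had 24, with 1 (4.17%) and 6 (25%). The enzymes that add sugars to the receptors, such as Lfng, had 9, with 1 (11.1%) and 2 (22.2%). The ubiquitin ligases of ligand endocytosis, such as Mib1, had 25, with 2 (8.00%) and 9 (36.0%). The genes of turnover and inhibition, such as Numb, Fbxw7 and Nrarp, had 52, with 7 (13.5%) and 15 (28.8%). The non-canonical ligands Dlk1, Dlk2 and Dner had 16 regions, of which 3 were shared and 12 were Dll1− only (75%, beside 24.6% of all regions), 8 of them at Dlk1.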

How the data were processed

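Chromatin accessibility was measured by ATAC-seq in 3 Dll1+ and 4 Dll1− samples. The authors processed the samples of each cell type together with the ENCODE ATAC-seq pipeline and deposited 1 optimal peak list per type, of 132872 rows for Dll1+ and 148923 for Dll1− cells. The aligner, the peak caller and its thresholds are not given in the sources used here. The submitters' processing notes name the builds mm10 and GRCm38. Of the columns deposited, the fold (a ratio of the summit to the local background), the −log10 p-value and the summit offset were used. The per-sample reads that the authors tested with DESeq2 were not analysed here.

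Rows of both lists were merged where they overlapped or touched and assigned to the nearest protein-coding TSS of GENCODE M21 (basic set). No row lay past a chromosome end of GRCm38.p6. Percentiles were taken among all rows of a list. Reads and local background were recovered from fold and p-value by assuming, for a peak caller that is not stated, a Poisson model that adds a pseudocount of 1 to both. All read counts, their intervals, the scaled ratios and the depth-scaled p-values rest on this assumption. The model was solved for all rows but 1 and checked on simulated data. Read intervals are exact Poisson 95% intervals, and ratio intervals are exact binomial ones, scaled by the ratio of genome-wide backgrounds (1.926). The total depth of each list is unknown. Sequences were read from GRCm38 with pysam 0.24.0.

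By rule, the named regions of each gene were the one over the TSS, the strongest away from it and list-only regions at or above the median fold of their list. The rule also took the shared regions with the largest difference of at least 10 points in each direction. Further regions were named outside the rule, such as the Notch1 region in a coding exon and the Dll1+ only regions of Notch2 and Notch4. The Dll1+ only region in the 5′ untranslated exon of Jag1 was another. Regions with an RBPJ motif and the Jag1 region 13415 bp downstream were added after their values had been seen. Scaling Dll1− only regions to the Dll1+ depth was also chosen then. The genes, the pathway list and the marker lists were chosen with earlier results of these data known. Alternatives changed the rows kept, the overlap, the gene assignment, the column ranked and the size of a called difference.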

Additional observations from a re-analysis of the deposited data

How the results depend on the processing

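No paired analysis was possible because each list analysed here pools the samples of its cell type, although 3 tumours gave both. For the same reason leaving out each replicate was not run. Of the 56 values recomputed under alternatives, 46 stayed within 1.5 times the main count or 10 points of the main difference and 10 moved further. With the rows at or above the median fold of each list merged anew, 38 regions were in both lists and 10 were Dll1− only. With an overlap of at least 50% of both rows required, 16 regions were Dll1+ only. Within 50 kb of the TSS, 18 were Dll1− only and 10 shared regions ranked higher in Dll1+ cells. Among rows at or above the median of their list, 0 were Dll1+ only and 4 were Dll1− only. Ranked by recovered reads, 11 shared regions were higher in Dll1+ cells, beside 12.3% of all shared regions. At 20 points, 6 were higher in Dll1+ and 9 in Dll1− cells. For the rows merged anew, the overlap, the distance limit and the 20 points, the same counts over all regions are not given here. These counts therefore cannot tell a move of the members from a move of all regions. Some alternatives remove rows or regions by construction, and beyond that the cause was not tested. The median difference ran from −3.56 to 1.61 points, beside −3.66 and −0.091 points over all shared regions under those settings. The 4 shared TSS regions stayed within 10 points in every alternative, but the sign of the difference changed for Notch3, Jag1 and Dll4. Pooling, and as few as 12 reads behind a Dll1+ region and 18 behind a Dll1− region, limit what single differences show.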
